A study of Mus musculus with 15 samples.

Results

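Bcl2 family proteins set the threshold for mitochondrial apoptosis. Their transcripts were followed in mouse whole blood 6 h after a dose of ABBV-075, also named mivebresib. The compound blocks the bromodomains with which BET proteins bind acetylated histones to drive transcription. The members were 10 genes: the anti-apoptotic Bcl2, Bcl2l1 and Mcl1, the pore-forming effectors Bax and Bak1, and the BH3-only activators and sensitisers Bcl2l11, Bid, Bbc3, Pmaip1 and Bad. A probe set (a group of short oligonucleotides that together read 1 transcript region on an Affymetrix array) was taken where the annotation gave 1 of these symbols and no other. This rule returned 29 of the 45037 probe sets that are not controls, for 9 of the 10 genes. No probe set was annotated with Bax alone, and Bax was not analysed here. The 15 mice formed 3 groups of 5, dosed with vehicle, with 1 mg/kg and with 5 mg/kg of ABBV-075, and each gave 1 array. The sources used here name no strain, sex, age or route of dosing. The series asked which transcripts in blood mark a response to the compound.

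In the resting cell, Bcl2, Bcl-xL (the product of Bcl2l1) and Mcl1 hold Bax and Bak1 in check by binding their exposed BH3 helices and those of the BH3-only proteins. When BH3-only proteins accumulate, Bax and Bak1 open the outer mitochondrial membrane and cytochrome c is released. In blood, lymphocytes are known to depend on Bcl2 and to be deleted through Bim (the product of Bcl2l11), neutrophils are known to depend on the short-lived Mcl1, and platelets and maturing red cells are known to depend on Bcl-xL.

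Unless stated otherwise, values are log2 of quantile-normalised intensities, with a floor of 16 (4 on the log2 scale) under which values have no order. Of the 29 probe sets, 22 were above the floor on at least 5 arrays and were tested among 24273 probe sets, and 7 were too dim. Array brightness differed before normalisation: the median intensity was 3.61 on 1 mg/kg replicate 1 and lay between 7.61 and 25.4 on the other 14 arrays. That array also had the lowest mean correlation with the others (0.80, against 0.83 to 0.89), over probe sets that are not independent. Leaving it out changed none of the 3 counts of called member probe sets given below. The 18S ribosomal RNA controls were not normalised between arrays. On the log2 scale they read 11.19 ± 0.94 (SD, n = 5 each) in the vehicle group, 9.97 ± 0.43 in the 1 mg/kg group and 9.42 ± 0.42 in the 5 mg/kg group. The number of arrays, 5 a group, limits the precision, which the intervals below show for each value.

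Bcl2l11 was the one member with a called difference. At 5 mg/kg against vehicle, 1 of the 22 tested member probe sets was higher and 0 were lower at a limma adjusted p of 0.05, where 0.0453% of all tested probe sets were higher and 0.0906% were lower (0.136% in either direction). For 1 mg/kg against vehicle 0 member probe sets were called, against 0.00824% of all, and at 5 mg/kg against 1 mg/kg 0 were called, against 0% of all. At an unadjusted limma p of 0.05 the counts were 4, 2 and 7 of 22 in those 3 comparisons, beside 7.96%, 5.8% and 8.66% of all tested probe sets. Several of the 22 probe sets are annotated with the same gene, so these counts are not of independent items. The 2 comparisons with vehicle share the vehicle arrays.

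Bim, encoded by Bcl2l11, binds all the anti-apoptotic members and can activate Bax and Bak1 directly, and its transcription is known to be driven by forkhead factors such as Foxo3. The RefSeq promoter table of build GRCm38.p6 holds 2 windows for the gene, each running from 250 bases before to 50 bases after an annotated start. They are shown because Bcl2l11 is the member whose transcript level was called, and because the windows lie at separate starts. Capitals mark every match, on either strand, to the motif called GC box (GGGCGG), the motif called CCAAT box (the letters CCAAT), the motif called TATA box (TATAAA), the motif called E-box (CACGTG) or a forkhead motif (GTAAACA).
Bcl2l11 window at chr2:128125788-128126087 (+ strand): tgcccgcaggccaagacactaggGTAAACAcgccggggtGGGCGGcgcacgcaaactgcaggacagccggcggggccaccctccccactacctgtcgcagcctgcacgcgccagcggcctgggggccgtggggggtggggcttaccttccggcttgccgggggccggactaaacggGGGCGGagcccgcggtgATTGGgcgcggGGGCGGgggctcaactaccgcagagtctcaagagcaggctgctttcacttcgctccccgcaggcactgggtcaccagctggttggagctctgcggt
Bcl2l11 window at chr2:128127325-128127624 (+ strand): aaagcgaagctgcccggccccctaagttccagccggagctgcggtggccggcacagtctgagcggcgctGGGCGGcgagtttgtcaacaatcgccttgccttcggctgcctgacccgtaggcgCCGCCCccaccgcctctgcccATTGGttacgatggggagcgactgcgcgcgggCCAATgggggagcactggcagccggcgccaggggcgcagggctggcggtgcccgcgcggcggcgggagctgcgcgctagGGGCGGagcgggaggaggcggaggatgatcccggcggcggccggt
The first window held 3 GC boxes, 1 CCAAT box and 1 forkhead sequence, and the second held 3 GC boxes and 2 CCAAT boxes. Neither contained a TATA box or an E-box, and no matches overlapped. Among all 32851 windows of the table, 35.7% held the GC box, 37.4% the CCAAT box, 13.6% the TATA box, 7.15% the E-box and 3.65% the forkhead sequence. The windows of Bbc3, a member without a called difference, also included 1 with the forkhead sequence. A match describes letters and is not evidence of binding.

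The probe set 1456005_a_at carried the call. Its log2 values were 5.57, 6.47, 5.86, 5.95 and 6.11 on vehicle arrays 1 to 5. With 1 mg/kg they were 5.63, 6.51, 6.74, 6.49 and 5.91, and at 5 mg/kg they were 7.16, 7.46, 7.01, 7.84 and 7.90. All 5 arrays at 5 mg/kg lay above all 10 others, whereas the 1 mg/kg and vehicle arrays overlapped. In the deposited, unscaled intensities the 5 mg/kg arrays read 157, 231, 66.9, 316 and 210 and the vehicle arrays 50.3, 83.6, 48.1, 50.8 and 63.1, so that 1 array at 5 mg/kg, replicate 3, which was dim throughout, fell inside the vehicle range before scaling.

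The level of 1456005_a_at at 5 mg/kg was 2.79-fold that with vehicle (log2 1.48 ± 0.26, SE, n = 5 per group; 95% interval 0.93 to 2.02; limma adjusted p = 0.0279). Against 1 mg/kg the difference was 1.21 (95% interval 0.67 to 1.76; limma adjusted p = 0.36), and at 1 mg/kg against vehicle it was 0.27 (95% interval -0.28 to 0.81; limma adjusted p = 0.93). The call at 5 mg/kg was lost when some single arrays were left out. Without vehicle replicate 1, 3, 4 or 5, or 5 mg/kg replicate 2, 4 or 5, the limma adjusted p was 0.0623 to 0.103 with a log2 difference of 1.37 to 1.51. With the 8 other arrays left out in turn it passed. The call was also lost with no scaling between arrays (limma adjusted p = 1.0) and with a floor of 8 (limma adjusted p = 0.0595), while the log2 difference was 1.59 and 1.48.

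The other 3 tested probe sets of Bcl2l11 did not pass. The one of highest mean, 1435448_at, read 6.24, 6.70, 6.55, 6.68 and 6.52 with vehicle, 7.24, 6.72, 6.87, 6.62 and 6.58 at 1 mg/kg, and 7.02, 7.18, 7.22, 7.30 and 7.37 at 5 mg/kg. In the deposited, unscaled intensities 5 mg/kg replicate 3 (77.4) fell inside the vehicle range of 76.5 to 98.1. After scaling, all 5 arrays at 5 mg/kg lay above all 5 vehicle arrays, while 1 mg/kg replicate 1 lay among the 5 mg/kg arrays. The difference at 5 mg/kg against vehicle was 0.68 ± 0.17 (SE, n = 5 per group; 95% interval 0.32 to 1.05; limma adjusted p = 0.179). At 1 mg/kg against vehicle it was 0.27 with that array and 0.16 without it.

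The probe set 1435449_at read 5.11, 5.93, 6.71, 6.56 and 6.36 at 5 mg/kg, against 5.25, 6.19, 5.95, 5.35 and 5.10 with vehicle. The groups overlapped, and the difference of 0.57 had a 95% interval of -0.059 to 1.19 (limma adjusted p = 0.683). In contrast, 1456006_at read 6.38, 5.63, 6.26, 5.94 and 5.24 at 5 mg/kg, against 5.94, 5.66, 5.79, 6.25 and 6.02 with vehicle. The vehicle range lay inside that at 5 mg/kg, with a difference of -0.046 (95% interval -0.79 to 0.70; limma adjusted p = 0.991). The differences at 1 mg/kg against vehicle were 0.19 for 1435449_at and 0.089 for 1456006_at, and the value for 1456006_at was 0.46 without 1 mg/kg replicate 1 (limma adjusted p = 0.896). The remaining probe set, 1426334_a_at, was at the floor on all 15 arrays.

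**Figure D1:**
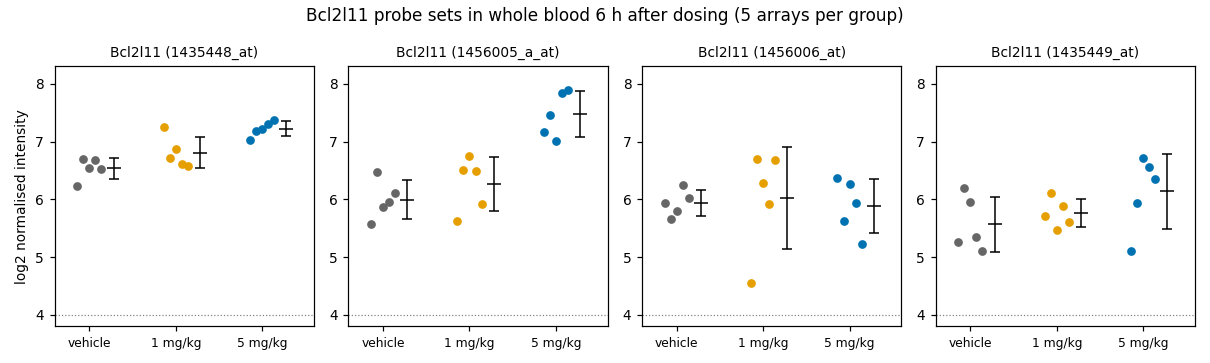
Log2 normalised intensity (y axis) of the 4 tested Bcl2l11 probe sets on each array, by group (x axis: vehicle, 1 mg/kg, 5 mg/kg). Points are single arrays and bars show the mean ± SD of 5. For 1456005_a_at and 1435448_at the 5 arrays at 5 mg/kg sit above the 5 vehicle arrays, and for 1456006_at the 3 groups overlap.

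The Bcl2l11 probe sets agreed in part. The array annotation gives 1456005_a_at and 1456006_at the same target record, and 1435448_at and 1435449_at another. Responses were compared by taking, per array, the log2 value of 1435448_at minus that of each other probe set, so that any constant offset cancels. The response of 1435448_at at 5 mg/kg against vehicle was smaller than that of 1456005_a_at by a difference of -0.80 (exact two-sided permutation p = 0.00794, the least that 5 arrays against 5 can give; adjusted p = 0.0238 over 3 pairs). It exceeded that of 1456006_at by 0.73 (exact permutation p = 0.0397; adjusted p = 0.0595) and that of 1435449_at by 0.11 (exact permutation p = 0.738; adjusted p = 0.738). Without vehicle replicate 2 or 5 mg/kg replicate 1, 2 of the 3 pairs passed (0.84 and 0.90 for the pair with 1456006_at).

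Over all 15 arrays 1435448_at and 1456005_a_at moved together (Pearson r = 0.745, permutation adjusted p = 0.0044; Spearman rho = 0.718, adjusted p = 0.00903). The r was 0.597 without the 2 arrays farthest from the median and 0.123 after group means were subtracted. The pairs of 1435449_at with 1435448_at (r = 0.563, rho = 0.575) and with 1456005_a_at (r = 0.544, rho = 0.468) had permutation adjusted p-values for r of 0.0512 and 0.0566. The 3 pairs with 1456006_at had r from -0.416 to -0.013. After group means were subtracted, r of 1456006_at was -0.695 with 1435448_at, 0.094 with 1456005_a_at and -0.167 with 1435449_at. Adjustment covered 30 pairs of probe sets of 1 gene, of which 16 passed for r. The arrays were permuted without regard to dose group, so these p-values also reflect differences between the groups.

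Mcl1, the short-lived member that binds Bim and Noxa, had 6 probe sets, all tested, and 0 passed in any comparison. Log2 values of 1416880_at, its probe set of highest mean, were 9.09, 9.60, 9.44, 9.48 and 9.43 with vehicle, 9.10, 9.15, 9.44, 9.03 and 8.70 at 1 mg/kg, and 9.43, 9.68, 9.59, 9.88 and 9.54 at 5 mg/kg. Each pair of groups overlapped. At 5 mg/kg against vehicle the 6 differences were 0.14 to 0.38, all with 95% intervals that include 0. The lower dose gave -0.35 to -0.20 against vehicle, likewise with intervals that include 0.

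Between the doses the 6 Mcl1 differences were 0.50 to 0.66, and 5 of them had an unadjusted limma p under 0.05, with adjusted p-values of 0.442 and above for all 6. For 1456381_x_at the 5 arrays at 5 mg/kg, at 8.71, 8.75, 9.06, 9.29 and 9.11, lay above the 5 at 1 mg/kg, at 8.52, 8.57, 8.67, 8.44 and 7.99. In the deposited, unscaled intensities of 1456381_x_at these groups overlapped (284 to 842 and 91.9 to 699). After scaling, 1456381_x_at and Bcl2l11 1456005_a_at were the 2 member probe sets whose dose groups did not overlap. Of all tested probe sets, 1.03% were higher without overlap. The 3 Mcl1 probe sets whose names end in _x_at, which can also read related sequences, were nearly interchangeable over the 15 arrays (r = 0.957 to 0.985). Of all 15 Mcl1 pairs, 12 passed for r, which ran from 0.422 to 0.985. After group means were subtracted, r of these pairs ran from 0.039 to 0.971.

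Bcl2l1, which encodes Bcl-xL, gave log2 values for 1420888_at of 10.10, 10.04, 10.49, 10.70 and 10.78 with vehicle, 10.90, 10.12, 10.80, 9.62 and 10.77 at 1 mg/kg, and 10.69, 10.32, 9.88, 8.95 and 9.69 at 5 mg/kg. The 5 mg/kg arrays spread most (SD 0.66, against 0.34 with vehicle, n = 5 each) and overlapped the vehicle arrays. The difference at 5 mg/kg against vehicle was -0.52 (95% interval -1.20 to 0.16; limma adjusted p = 0.761). The probe sets 1420887_a_at and 1426191_a_at differed by -0.32 and 0.10 at 5 mg/kg against vehicle, and both intervals include 0. Without 5 mg/kg replicate 4, the array of lowest value, the differences of 1420888_at and 1420887_a_at were -0.28 and -0.069, and without 5 mg/kg replicate 1 they were -0.71 and -0.60. The 3 differences at 1 mg/kg against vehicle were -0.15 to 0.34, so no common direction was seen. The fourth probe set, 1426050_at, was above the floor on 4 of 15 arrays and was not tested.

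**Figure D2:**
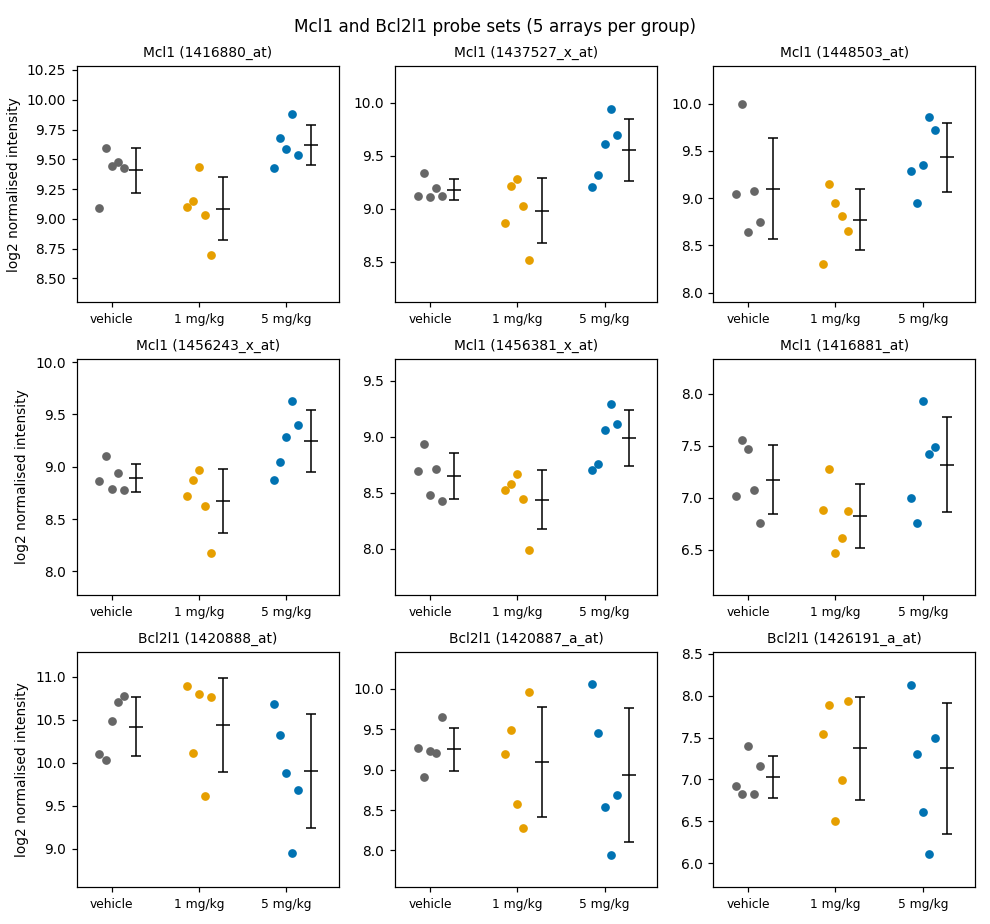
Log2 normalised intensity (y axis) of the 6 tested Mcl1 and the 3 tested Bcl2l1 probe sets on each array, by group (x axis). Points are single arrays and bars show the mean ± SD of 5. The 6 Mcl1 panels share an order of means, lowest at 1 mg/kg and highest at 5 mg/kg, with overlapping vehicle and dosed arrays throughout. The Bcl2l1 panels show wide spread at both doses.

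Bcl2, the founding anti-apoptotic member, had 5 probe sets of which 4 were tested. The probe set 1443837_x_at read 5.71, 5.83, 5.38, 5.84 and 5.44 at 5 mg/kg, against 6.03, 5.91, 6.55, 6.53 and 6.31 with vehicle. All 5 arrays at 5 mg/kg lay below all 5 vehicle arrays. The difference was -0.62 ± 0.29 (SE, n = 5 per group; 95% interval -1.23 to -0.020) and did not pass (limma adjusted p = 0.611). The same probe set ran from 4.82 to 6.54 at 1 mg/kg, across nearly the whole range of the other groups.

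The 3 other Bcl2 probe sets differed by -0.39 (1440770_at), -0.31 (1422938_at) and 0.13 (1457687_at) at 5 mg/kg against vehicle, with overlapping groups, and each had at least 1 of the 15 arrays at the floor. Single arrays moved these values: 1440770_at was at -0.052 without vehicle replicate 3 and -0.59 without vehicle replicate 1, and 1422938_at was at -0.035 without vehicle replicate 2 and -0.54 without vehicle replicate 3. At 1 mg/kg against vehicle all 4 were negative, from -0.43 to -0.35, and all 4 intervals include 0. Of the 6 pairs of Bcl2 probe sets, 1 passed for agreement over the 15 arrays (1443837_x_at with 1440770_at, r = 0.584, rho = 0.682, permutation adjusted p = 0.0416 and 0.0164; r = 0.414 without the 2 farthest arrays). Over all members at 5 mg/kg against vehicle, 2 probe sets (both of Bcl2l11) were higher and 1 (of Bcl2) was lower without overlap, where 1.29% of all tested probe sets were higher and 1.15% were lower without overlap. In either direction the count was 3 at 5 mg/kg against vehicle, beside 2.44% of all, 0 at 1 mg/kg against vehicle, beside 0.865%, and 2 between the doses, beside 1.27%.

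Bak1, the effector that sits in the outer mitochondrial membrane, read 4.50, 4.46, 4.00, 4.86 and 5.08 at 5 mg/kg with probe set 1418991_at, against 5.02, 4.91, 5.69, 5.11 and 5.85 with vehicle. The 1 mg/kg arrays read 4.36, 5.08, 5.39, 4.35 and 4.05. The values are close to the floor, and the groups overlapped. The differences were -0.74 (95% interval -1.35 to -0.12) at 5 mg/kg and -0.67 (95% interval -1.28 to -0.054) at 1 mg/kg, with limma adjusted p-values of 0.497 and 0.846. The other Bak1 probe set, 1425716_s_at, was at the floor on all 15 arrays.

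Pmaip1 encodes Noxa, a p53 target that binds Mcl1 and marks it for degradation. Its single probe set, 1418203_at, read 4.97, 5.48, 5.45, 5.60 and 4.88 with vehicle, 4.00, 4.44, 5.31, 4.71 and 4.00 at 1 mg/kg, and 4.61, 4.00, 5.19, 4.93 and 4.73 at 5 mg/kg. The dosed arrays were mostly lower and reached the floor on 3 of 10. The differences were -0.78 at 1 mg/kg (95% interval -1.38 to -0.19) and -0.58 at 5 mg/kg (95% interval -1.17 to 0.011), and the limma adjusted p-values were 0.791 and 0.643.

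Bbc3 encodes Puma, a p53 target that binds all anti-apoptotic members. Its single probe set, 1423315_at, read 5.90, 5.78, 4.77, 5.94 and 4.38 with vehicle, 6.99, 5.84, 5.39, 5.66 and 6.22 at 1 mg/kg, and 6.25, 4.89, 6.87, 5.35 and 6.46 at 5 mg/kg. The 3 groups overlapped. The differences were 0.67 at 1 mg/kg and 0.61 at 5 mg/kg, and both 95% intervals include 0 (-0.23 to 1.56 at 1 mg/kg). With each array left out in turn the 5 mg/kg value was 0.37 to 0.88.

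Bid, which links death receptors to mitochondria once caspase-8 has cut it, had a median of 5.41 at 5 mg/kg (4.58 to 5.96) with probe set 1417045_at, against 5.91 with vehicle (4.00 to 6.29). The difference was -0.18 with a wide 95% interval of -1.12 to 0.77, and at 1 mg/kg against vehicle it was -0.46 (95% interval -1.40 to 0.49). Bad, a sensitiser that growth factor signalling holds inactive by phosphorylation, had a median of 5.40 at 5 mg/kg (4.10 to 5.60) with probe set 1416583_at, against 5.24 with vehicle (4.75 to 5.55). The difference was -0.073 (95% interval -0.63 to 0.48), and at 1 mg/kg against vehicle it was -0.11 (95% interval -0.66 to 0.45). The 2 other Bid probe sets and the other Bad probe set were above the floor on 1 or 2 arrays.

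**Figure D3:**
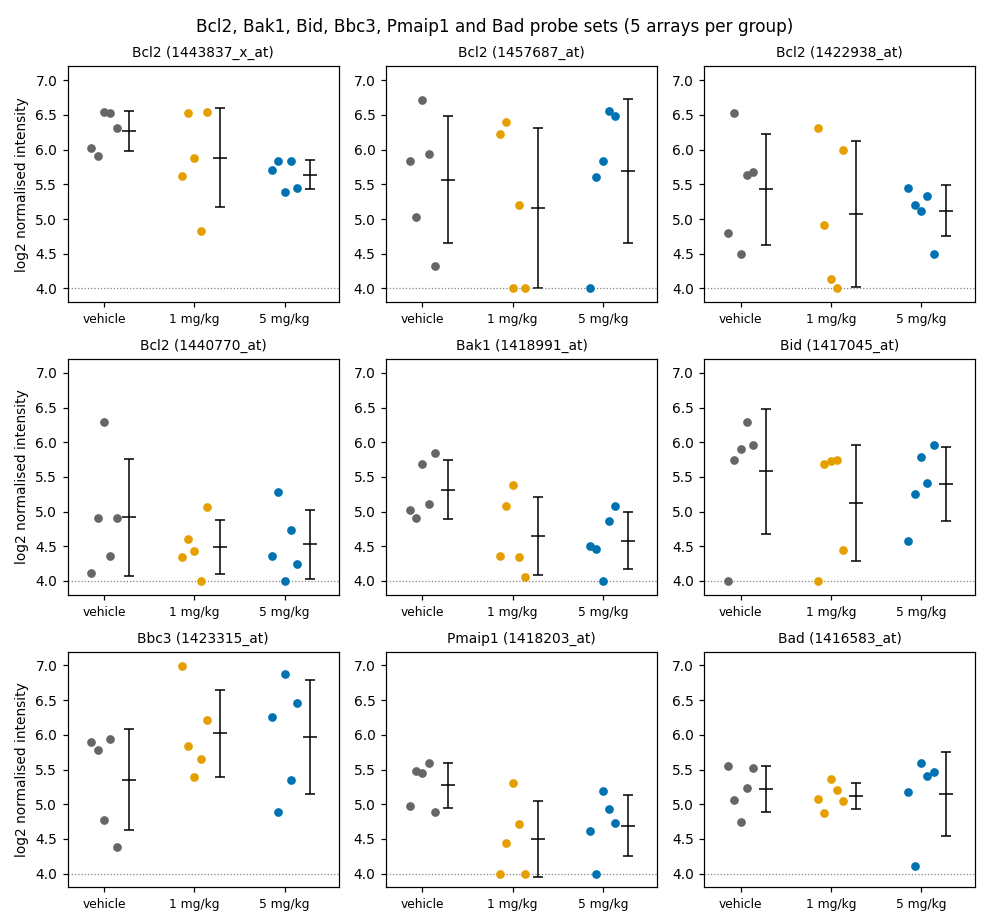
Log2 normalised intensity (y axis) of the tested Bcl2, Bak1, Bid, Bbc3, Pmaip1 and Bad probe sets on each array, by group (x axis). Points are single arrays, bars show the mean ± SD of 5, and the dotted line is the floor at 4. For Bcl2 1443837_x_at the arrays at 5 mg/kg sit below the vehicle arrays, and in the other panels the vehicle and 5 mg/kg arrays overlap.

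Across the 22 tested member probe sets the median log2 difference at 5 mg/kg against vehicle was 0.11, with 12 positive and 10 negative, beside a median of -0.0066 over all tested probe sets. At 1 mg/kg against vehicle the median was -0.22, with 7 positive and 15 negative, beside -0.020 over all. The median size of the difference, sign aside, was 0.34 and 0.33, beside 0.22 and 0.21 over all. The members were not matched to all probe sets in brightness, and 6 of the 22 read Mcl1, so these medians are a description. The positive values at 5 mg/kg came from Bcl2l11 (3 of 4 probe sets), Mcl1 (6 of 6), Bcl2 (1 of 4), Bcl2l1 (1 of 3) and Bbc3.

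**Figure D4:**
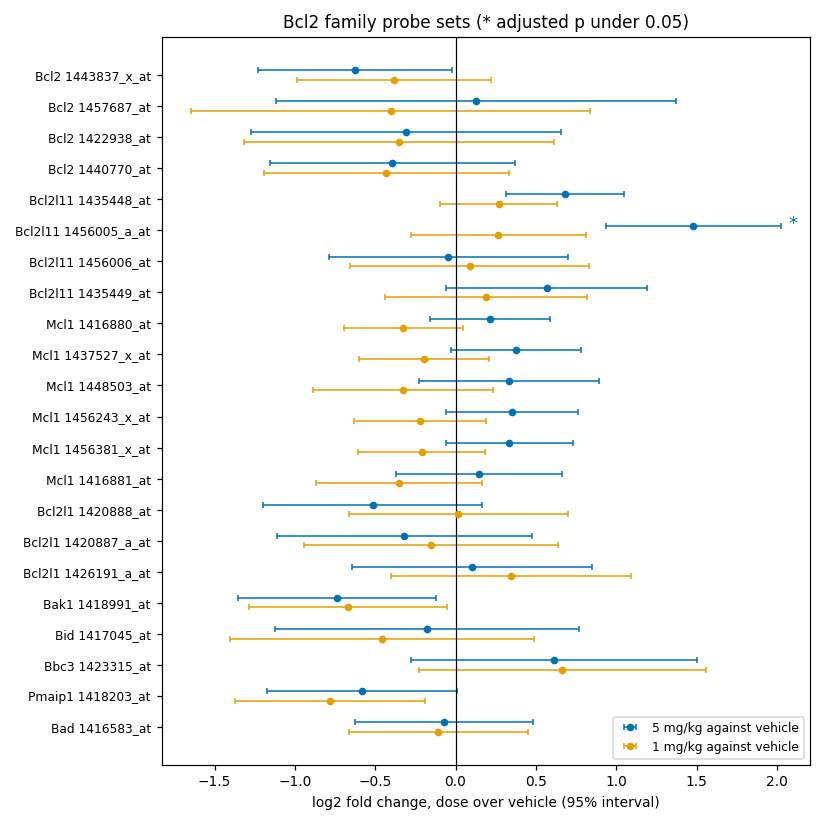
Log2 fold change over vehicle (x axis) of each tested member probe set (y axis) at 5 mg/kg and at 1 mg/kg, with 95% intervals from limma. The asterisk marks the 1 probe set past an adjusted p of 0.05, Bcl2l11 1456005_a_at, whose interval of 0.93 to 2.02 lies clear of 0.

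Other genes of the apoptosis pathway were examined by role. Of 54 listed genes, 46 had a probe set and 42 were tested, each by its probe set of highest mean. None of the 42 passed in any of the 3 comparisons by limma, beside 0.112% of all genes at 5 mg/kg against vehicle, 0.00799% at 1 mg/kg against vehicle and 0% between the doses. At an unadjusted limma p of 0.05 the counts were 3, 1 and 2 of 42, beside 7.92%, 6.16% and 8.09% of all genes. The median differences were 0.0025, -0.026 and -0.029, and 21, 19 and 19 of the 42 were positive, beside 46.6%, 47% and 47.7% of all genes. None of the 42 had groups without overlap, beside 2.56%, 0.91% and 1.16% of all genes.

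The 9 tested members of the wider Bcl2 family, 9 genes of the mitochondria and apoptosome, 6 caspase and nuclease genes, 4 inhibitors of apoptosis, 7 death receptor genes and 7 upstream regulators had medians at 5 mg/kg against vehicle between -0.22 and 0.056. The smallest p-values were for Casp8, the initiator caspase of death receptors (-0.48 ± 0.19; limma adjusted p = 0.522), Birc6, a large inhibitor of apoptosis protein (0.67 ± 0.28; adjusted p = 0.539), and Diablo, which relieves the block on caspases (0.47 ± 0.21; adjusted p = 0.609; all ± SE, n = 5 per group). Birc6 also had a second tested probe set at -0.05. Birc2, an inhibitor of apoptosis protein that acts in NF-kB signalling, was at -0.55, Bok, a Bax-like effector, at -0.53 and Casp1, the inflammasome caspase, at -0.45, none past the threshold. The smallest p at 1 mg/kg against vehicle was that of Birc3, the partner of Birc2, at -1.29 ± 0.44 (limma adjusted p = 0.786).

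Whole blood mixes cell types that use different family members, and in such a sample fewer cells of a type and less RNA per cell cannot be told apart. Of 89 marker genes in 8 lists, 65 were tested, and lists for lymphocytes, monocytes, neutrophils, platelets and erythroid cells all had means above the floor. Cd4 and Ly6g, defining genes of helper T cells and neutrophils, were not among the tested ones. The monocyte marker mean was 6.58 ± 0.060 at 5 mg/kg, against 7.53 ± 0.24 with vehicle (SD, n = 5 each). Every dosed array was under every vehicle array (0.00794 by the exact permutation test for both doses; adjusted p = 0.0635 over 16 tests). The B cell marker mean was 7.22 ± 0.34 at 5 mg/kg, against 6.71 ± 0.44 with vehicle (exact permutation p = 0.0873; adjusted p = 0.2).

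None of the 16 marker tests passed, and 3 had an unadjusted exact permutation p under 0.05. The least p this exact permutation test can give is 0.00794, which both monocyte tests had. Adjusted over 16 tests, that p could pass only where enough other tests also had small p-values. The outcome for each list therefore depended on the other lists. Without 1 mg/kg replicate 2, 3 passed: monocyte markers at 5 mg/kg (-0.95) and at 1 mg/kg (-0.78) and T cell markers at 1 mg/kg (-0.52), all against vehicle (exact permutation adjusted p = 0.0423 each). The summed intensity of the 9 tested monocyte markers was 2951 to 4283 at 5 mg/kg, against 4999 to 7759 with vehicle, and that of the 9 tested B cell markers was 2084 to 4375, against 1104 to 2822. No marker of these 2 lists was at the floor on all arrays of a group. At 5 mg/kg all 9 tested monocyte markers were below their vehicle mean, as were all 9 mature neutrophil and all 9 platelet markers, 8 of 9 NK cell, 6 of 8 erythroid, 3 of 10 T cell and 2 of 9 B cell markers. The mean of the 2 tested eosinophil and basophil markers, 1 of them below its vehicle mean, differed by -0.99 with overlapping groups (exact permutation p = 0.0794, adjusted 0.20), beside -0.96 for the monocyte markers.

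Values of Bcl2l11 with a marker mean added to the model were computed after the data were seen. With the B cell marker mean as a covariate, the difference of 1456005_a_at at 5 mg/kg against vehicle was 1.29 (limma adjusted p = 0.109). With the monocyte marker mean it was 2.35 (limma adjusted p = 0.0866), and with the 18S signal it was 1.42 (limma adjusted p = 0.473). The direction was the same in the 3 models and the call was lost in each. The 18S signal, not normalised between arrays, lay wholly lower at 5 mg/kg (8.83 to 9.88) than with vehicle (10.24 to 12.31). The monocyte mean did too (6.49 to 6.64, against 7.26 to 7.82). Dose and these 2 covariates therefore cannot be told apart here, and the lost calls and shifted values decide nothing about either. Over all 24273 probe sets, 3 were called higher and 30 lower with the B cell mean, 1 higher and 0 lower with the monocyte mean, and 0 with the 18S signal (2021 at an unadjusted limma p of 0.05), beside 11 and 22 without a covariate. For 1435449_at the difference of 0.57 became 0.32 with the B cell mean and 0.97 with the monocyte mean, and for 1435448_at the difference of 0.68 became 0.45 with the 18S signal. For 1456006_at the difference of -0.046 became 0.88 with the monocyte mean. None of these 4 values passed. The part of blood cell composition in these values was not tested.

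**Figure D5:**
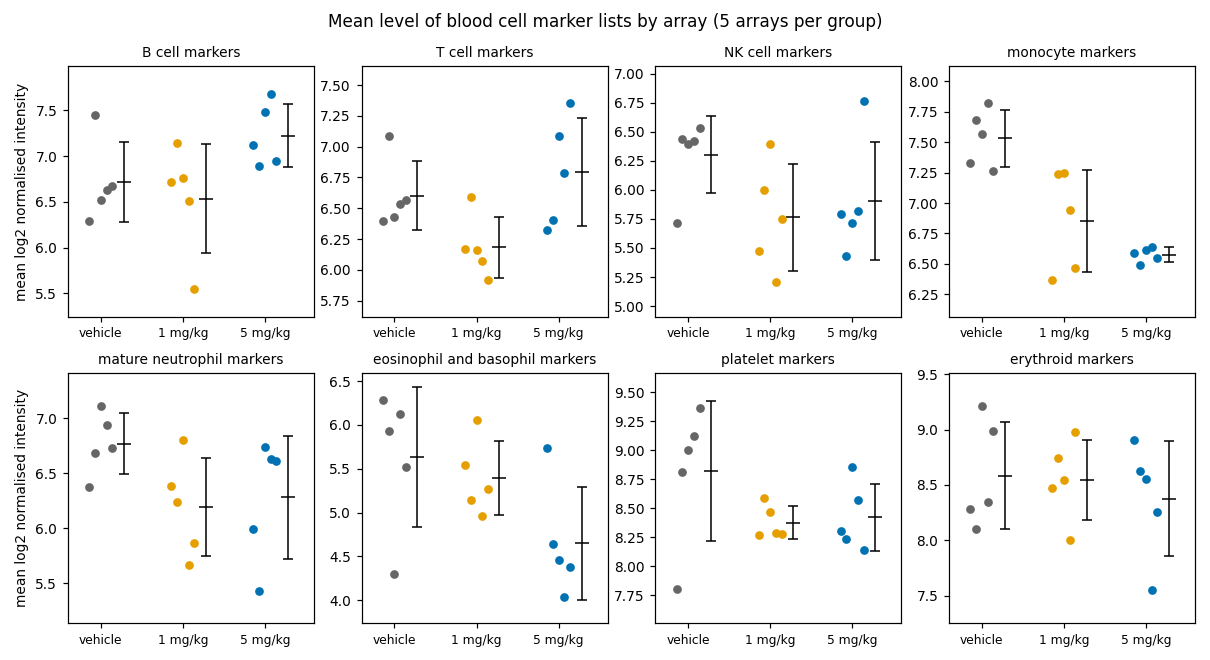
Mean log2 normalised intensity (y axis) over the tested genes of 8 blood cell marker lists on each array, by group (x axis). Points are single arrays and bars show the mean ± SD of 5. Monocyte markers at 5 mg/kg (6.58 ± 0.060) and at 1 mg/kg sit below those of all vehicle arrays (7.53 ± 0.24), and the other 7 lists overlap between vehicle and 5 mg/kg.

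The genes whose log2 values most resembled a member over the 15 arrays were ranked by Pearson r among 11648 genes, as a description of arrays that share the dose groups. For Bcl2l11 (1435448_at) they were Cdk2ap2 (0.851), Cactin (0.847), Cd3g (0.84), Ankrd10 (0.836) and Malat1 (0.826). For Mcl1 (1416880_at) they were Ets1 (0.914), Tspan13 (0.897), Lbh (0.892), Myl12b (0.891) and Hp1bp3 (0.886). For Bcl2 (1443837_x_at) they were Nmnat3 (0.877), Ap2m1 (0.864), Suds3 (0.86), Psenen (0.854) and Fscn3 (0.823). For Bcl2l1 (1420888_at) they were E2f2 (0.927), Fmr1nb (0.915), Cdc25b (0.905), Thnsl2 (0.893) and Abcc3 (0.885).

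With the marker lists, the median r of Bcl2l11 was 0.61 over the 9 B cell markers and -0.58 over the 9 monocyte markers, and between -0.19 and 0.23 for the other lists. For Mcl1 the median r was 0.70 over the B cell and 0.45 over the T cell markers, and between -0.18 and 0.34 for the other lists. For Bcl2l1 it was 0.47 over the 8 erythroid, -0.44 over the B cell and -0.021 over the platelet markers. The other lists gave Bcl2l1 values between -0.34 and 0.35. For Bcl2 it was 0.43 over the erythroid and 0.42 over the monocyte markers, and between -0.30 and 0.26 for the other lists.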

How the data were processed

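Total RNA from the whole blood of 15 mice was read on 1 Affymetrix array each. The labels' protocols give Qiazol and RNeasy for the extraction, and a 3' IVT Plus kit for biotin labelling of cRNA from 200 ng. The values deposited by the authors are probe set intensities on a linear scale, negative values included. The sources used here do not say how they were summarised or whether they were normalised.

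The 64 control probe sets of 45101 were left out, arrays were quantile-normalised, values under 16 were set to 16 and log2 was taken. A limma model (version 3.58.1, R 4.3.3; lmFit, then eBayes; two-sided) was fitted to all 15 arrays, with 12 residual degrees of freedom plus 3.94 from the prior. P-values were adjusted by Benjamini-Hochberg over the 24273 probe sets above 16 on at least 5 arrays. The code was tested on simulated data. Marker means and probe set differences had exact permutation tests (scipy 1.17.1), and correlations had 100000 permutations. Members and lists were chosen with earlier results of these data known. All members are named with every probe set. Of the other pathway genes, any past the threshold were to be named, with the 6 of smallest p at 5 mg/kg and the 3 at 1 mg/kg. Genes resembling Bcl2l11, Bcl2, Bcl2l1 or Mcl1 were the 5 of highest r. Replicate numbers were not used to pair the arrays: 3 of 15 pairs with a shared number correlated over 0.1. Their r ran from -0.27 to 0.32, beside -0.34 to 0.35 for pairs of different numbers. These correlations cannot exclude that arrays of 1 number were handled together. Alternatives covered scaling, floor, filter, gene summary, array weights, blocking, covariates and each array left out. Genome positions of probe sets were not used.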

Additional observations from a re-analysis of the deposited data

Results flagged for a closer look

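For Bad (probe set 1416583_at), 5 mg/kg replicate 2 had a log2 value of 4.10, while the other 4 arrays of that group lay between 5.18 and 5.60. The gap of this array to its nearest neighbour was 0.719 of the range of the group, above the Dixon critical value of 0.71 for 5 samples. It was 1 of 56 groups of member values examined, and chance alone gives about 1 such group in 20.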

How the results depend on the processing

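The count of member probe sets called at 5 mg/kg against vehicle was 1, and it was 0 with no scaling between arrays, with a floor of 8, with 1 value per gene (its brightest probe set, or the mean of its probe sets), and with the 18S signal, the B cell marker mean or the monocyte marker mean as a covariate. It was 0 to 1 with each array left out in turn, and was 1 with 75th percentile scaling, a floor of 32, a filter of 1 array, array weights, only the 2 groups compared, and trend with robust fitting. Over all probe sets or genes tested in that comparison, the calls were 11 higher and 22 lower, and they were 0 and 4 with no scaling, 7 and 18 with a floor of 8, 3 and 8 (brightest) or 8 and 19 (mean) with 1 value per gene, 0 and 0 with the 18S signal, 3 and 30 with the B cell mean, and 1 and 0 with the monocyte mean. At 5 mg/kg against 1 mg/kg the count of 0 became 1 with the monocyte marker mean as a covariate (Bcl2l11 1456005_a_at, 1.46, limma adjusted p = 0.0448), while calls over all probe sets went to 88 higher and 11 lower, against 0 without it. The 2 marker means were chosen as covariates after seeing the data. The monocyte mean and the 18S signal each separated the 5 mg/kg arrays from the vehicle arrays, so neither can be told apart from dose. The log2 difference of Bcl2l11 1456005_a_at at 5 mg/kg against vehicle was 1.59 with no scaling (limma adjusted p = 1.0), where the median of all probe sets was 0.12, and 1.48 with a floor of 8 (limma adjusted p = 0.0595, over 29825 probe sets). It was positive in all settings that tested this probe set, from 1.29 to 2.35. Of the 3 Bcl2l11 probe set pairs compared in their response, 1 to 2 passed with each array left out, and of the 16 marker tests 0 to 3 passed. The cause of these changes was not tested.

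The replicate number as a block left the counts at 1, 0 and 0 and gave Bcl2l11 1456005_a_at a limma adjusted p of 0.045. No pairing by number was seen: r was -0.27 to 0.32 between arrays of the same number and -0.34 to 0.35 between arrays of different numbers. Of the 15 arrays, 4 were closest to their own number. The block changed no member call. Over all probe sets it gave 9 higher and 19 lower at 5 mg/kg against vehicle, beside 11 and 22 without it. At 1 mg/kg against vehicle it gave 0 lower, beside 2 without it.

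Values that did not pass changed sign under some settings. With the 18S signal as a covariate these were Bcl2 1457687_at (-0.039) at 5 mg/kg against vehicle, then Bcl2l1 1420888_at (-0.23) and Bcl2l11 1456006_at (-0.0017) at 1 mg/kg against vehicle, then Bad 1416583_at (-0.022), Bcl2 1422938_at (-0.11), Bbc3 1423315_at (0.049) and Bcl2 1440770_at (-0.067) at 5 mg/kg against 1 mg/kg. With the B cell marker mean these were Bcl2l11 1456006_at (0.015) at 5 mg/kg against vehicle. With array weights these were Bcl2l1 1420888_at (-0.041) at 1 mg/kg against vehicle, then Bbc3 1423315_at (0.068) at 5 mg/kg against 1 mg/kg. With a floor of 32 these were Bad 1416583_at (0.056) at 5 mg/kg against vehicle, then Pmaip1 1418203_at (-0.024) and Bcl2 1422938_at (-0.25) at 5 mg/kg against 1 mg/kg. With a floor of 8 these were Bid 1417045_at (0.021) and Bcl2 1457687_at (-0.072) at 5 mg/kg against vehicle, then the erythroid marker mean (0.0018) at 1 mg/kg against vehicle. With the monocyte marker mean these were Bcl2l11 1456006_at (0.88) at 5 mg/kg against vehicle, then Bcl2l11 1456006_at (0.13) at 5 mg/kg against 1 mg/kg. With no scaling these were Bad 1416583_at (0.046) and Bcl2l11 1456006_at (0.083) at 5 mg/kg against vehicle, then Bcl2l1 1420888_at (-0.011) at 1 mg/kg against vehicle, then Pmaip1 1418203_at (-0.036), Bak1 1418991_at (0.019), Bcl2l1 1420887_a_at (0.022) and Bbc3 1423315_at (0.15) at 5 mg/kg against 1 mg/kg. With each array left out in turn, signs also changed. At 5 mg/kg against vehicle the ranges were -0.19 to 0.19 for Bad 1416583_at, -0.0095 to 0.29 for Mcl1 1416881_at, -0.57 to 0.023 for Bid 1417045_at, -0.15 to 0.36 for Bcl2l1 1426191_a_at, -0.17 to 0.12 for Bcl2l11 1456006_at and -0.19 to 0.55 for Bcl2 1457687_at. At 1 mg/kg against vehicle the ranges were -0.37 to 0.055 for Bcl2l1 1420887_a_at, -0.10 to 0.23 for Bcl2l1 1420888_at and -0.079 to 0.46 for Bcl2l11 1456006_at. At 5 mg/kg against 1 mg/kg the ranges were -0.079 to 0.29 for Bad 1416583_at, -0.0013 to 0.48 for Bid 1417045_at, -0.22 to 0.11 for Bak1 1418991_at, -0.45 to 0.084 for Bcl2l1 1420887_a_at, -0.22 to 0.37 for Bcl2 1422938_at, -0.28 to 0.22 for Bbc3 1423315_at, -0.49 to 0.014 for Bcl2l1 1426191_a_at, -0.15 to 0.18 for Bcl2 1440770_at and -0.50 to 0.033 for Bcl2l11 1456006_at. The B cell marker mean ranged at 1 mg/kg against vehicle from -0.28 to 0.070. The erythroid marker mean ranged at 1 mg/kg against vehicle from -0.16 to 0.12. The Bcl2l11 response of 1435448_at minus 1435449_at ranged from -0.093 to 0.26.

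The number of arrays and the signal over the floor limit these values: 7 of 29 probe sets could not be tested, and Bak1, Pmaip1, Bid and 3 probe sets of Bcl2 had arrays at the floor. The annotation of the array can be old, and the summarisation behind the deposited intensities is unknown here.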
